A study of Mus musculus with 17 samples.

Results

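Aminoacyl-tRNA synthetases were described in the hearts of mice that accumulate mitochondrial DNA mutations and in control hearts, with the genes for the cytosolic enzymes set against those for the mitochondrial enzymes. Members were the protein-coding genes named as a one-letter amino acid code followed by ars, alone or with a final 1 or 2, together with *Eprs*, *Farsa*, *Farsb* and *Tarsl2*. The rule took 38 of the 56748 genes in the table, and all 38 were among the 16195 genes with enough counts to be tested. A gene was counted as mitochondrial when its name ended in 2 (17 genes) and as cytosolic otherwise (21 genes). *Tarsl2* ends in 2 but encodes a cytosolic threonyl-tRNA synthetase and was counted as cytosolic. Read literally, the name rule gives 20 cytosolic and 18 mitochondrial genes and moves no call.

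Aminoacyl-tRNA synthetases join each amino acid to its tRNA, the step that makes the genetic code readable by a ribosome. Animal cells keep separate nuclear genes for most of the cytosolic and mitochondrial enzymes, and the mitochondrial set serves only the translation of the few respiratory chain subunits that mitochondrial DNA encodes. *Gars* and *Kars* each encode both forms of their enzyme, and mitochondrial glutaminyl-tRNA is made through an amidotransferase and not by a glutaminyl-tRNA synthetase. Transcription of many cytosolic synthetase genes is known to be driven by ATF4, the transcription factor of the integrated stress response, which mitochondrial dysfunction engages in the heart.

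The series holds bulk RNA-seq of hearts from mice aged 12 to 16 months, with 9 libraries labelled hMut and 8 labelled Ctrl, 1 heart each. The hMut mice carried 2 copies of the inducible *Polg* iMut allele and a Ckmm-cre transgene, so that Cre expressed from the muscle creatine kinase promoter switched on the proofreading-deficient POLG D257A in striated muscle cells, which in the heart are the cardiomyocytes. The labels give the control mice only as Ctrl, and their genotype and the sex of each mouse were not given in the sources used here. By *Xist* and Y-linked counts, 3 Ctrl and 2 hMut hearts came from females. Total counts per heart lay between 32915159 and 46486964. Because whole hearts were used, fewer cells of a type and less RNA per cell cannot be told apart.

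*Polg* itself was counted at 27.1 to 47.2 CPM (counts brought to a common library size, scaled by the trimmed mean of M-values, TMM) in Ctrl hearts and at 47.0 to 65.1 CPM in hMut hearts, with means of 34.7 ± 7.31 (SD, n = 8) and 57.9 ± 6.08 (SD, n = 9). Its log2 fold change of 0.74 ± 0.10 (SE, adjusted p = 0.000448, edgeR) follows the group labels, although a count per gene does not read the D257A base change. The hMut hearts numbered 6 and 9 stood apart from the other hMut hearts. Summed counts of 10 cardiomyocyte markers were 39686 and 35348 CPM in them, against 45556 to 54844 CPM in the other 7 hMut hearts and 46668 to 56415 CPM in Ctrl. Summed counts of 13 interferon-stimulated genes reached 1332 CPM in hMut 6 and 298 CPM in hMut 9, against 119 to 187 CPM in the other hMut hearts and 124 to 184 CPM in Ctrl. The main counts and medians, and the members and lists that these hearts moved most, are given with and without them.

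The promoters of the members were searched for the element that ATF4 binds, here the letters TGATGNAA on either strand, in the window from 250 bases before to 50 bases after the first transcribed base of the canonical GENCODE transcript in GRCm39. The element was present in 5 of the 21 cytosolic promoters (23.8%), in 0 of the 17 mitochondrial promoters and in 835 of all 21765 protein-coding promoters (3.84%). The 5 genes were *Aars*, *Cars*, *Gars*, *Iars* and *Tars*. A match of each gene is shown as the 30 bases around it, read 5′ to 3′ on the strand of the gene, with the match in capitals, because these 5 genes are all among those higher in hMut hearts. The letters lay on the strand opposite to the gene in each case.
Aars: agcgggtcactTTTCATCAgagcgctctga
Cars: cggcgccgcggTTGCATCAgattctggaag
Gars: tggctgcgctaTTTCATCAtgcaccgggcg
Iars: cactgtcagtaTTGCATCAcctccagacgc
Tars: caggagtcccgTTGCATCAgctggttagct

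The *Aars* window lies at chr8:111760472-111760501 on the plus strand, with its match 25 bases before the first transcribed base (distances are to the first base of the match). The *Tars* window, at chr15:11399741-11399770 on the minus strand, begins its match 8 bases before the start. In *Gars* (chr6:55014945-55014974, plus strand), *Cars* (chr7:143153782-143153811, minus strand) and *Iars* (chr13:49835602-49835631, plus strand) the match lies 12, 27 and 37 bases past the start, in the transcribed part. With a 9th letter required (TGATGNAAT), 3 of the 21 cytosolic promoters kept a match, against 0 of 17 mitochondrial promoters and 0.896% of all promoters. The element was found in 5.38% of the 539 promoters of genes called higher in hMut and in 2.49% of the 13711 promoters of tested genes. The element of NRF1, a regulator of nuclear genes for mitochondrial proteins, was matched on either strand in 3 cytosolic promoters (*Farsb*, *Kars* and *Tars*), 3 mitochondrial promoters (*Iars2*, *Mars2* and *Pars2*) and 5.78% of all promoters. A match is a run of letters in this window, not a measured binding site.

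The 2 compartments differed in these hearts. Of the 21 cytosolic genes, 12 rose in hMut hearts and 0 fell at an adjusted p under 0.05 (edgeR's quasi-likelihood test, Benjamini-Hochberg over all tested genes), beside 3.48% of all tested genes that rose and 1.14% that fell. Of the 17 mitochondrial genes, 0 rose and 0 fell. At an unadjusted p under 0.05 the mitochondrial count was 0 higher and 6 lower, beside 2347 higher and 1831 lower of all 16195 tested genes. With DESeq2 and an adjusted p under 0.05 the mitochondrial count was 0 higher and 1 lower. The median log2 fold change was 0.39 over the cytosolic genes, -0.11 over the mitochondrial genes and 0.00 over all tested genes. The cytosolic fold changes ran from -0.19 to 0.87 and the mitochondrial ones from -0.23 to 0.09.

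The sign of the mitochondrial median depended on the scaling. With libraries scaled on the cardiomyocyte markers, which moved the median of all genes to 0.20, the mitochondrial median was 0.077 and the cytosolic one 0.60, or -0.13 and 0.40 relative to all genes. Without hMut hearts 6 and 9 the cytosolic median was 0.32 with 11 genes called, and the mitochondrial median was -0.043.

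**Figure D1:**
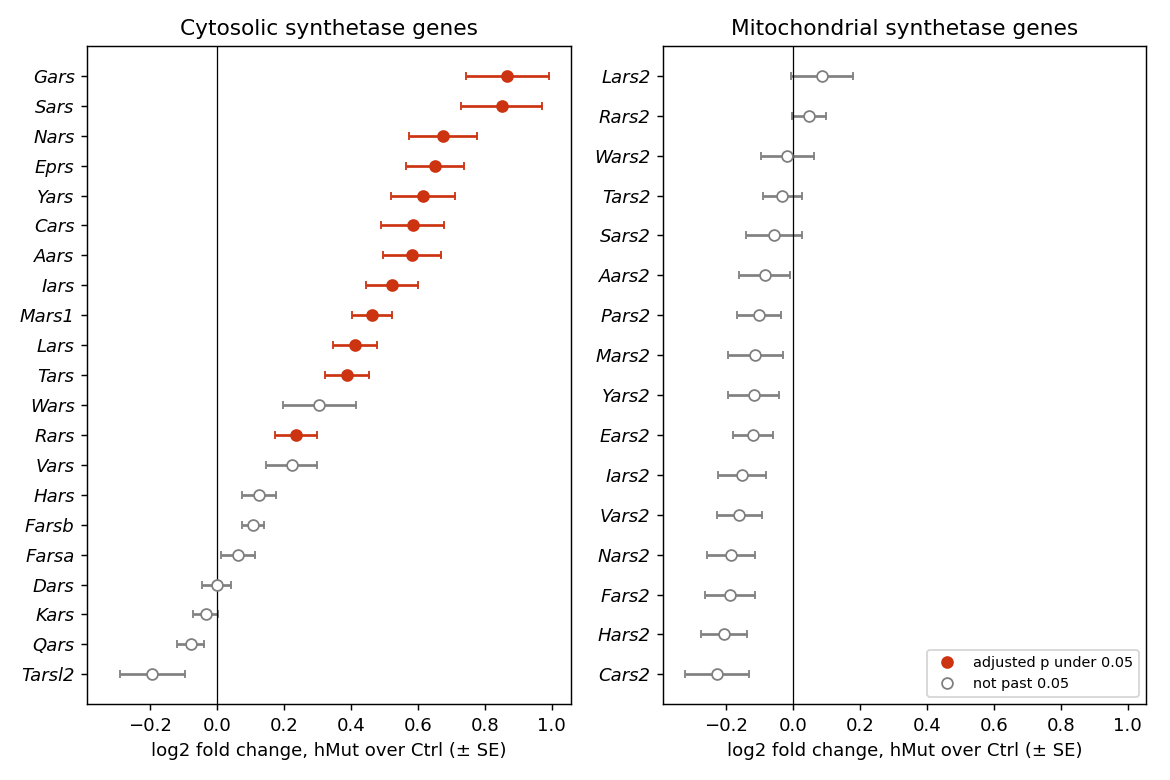
Log2 fold change of each synthetase gene between hMut and Ctrl hearts, with bars of 1 SE, for the cytosolic genes on the left and the mitochondrial genes, 1 of them not drawn, on the right. Filled points passed an adjusted p of 0.05, and all 12 of them are cytosolic genes above 0.

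Every hMut heart lay above every Ctrl heart for 10 of the 21 cytosolic genes, beside 0.543% of all tested genes. No mitochondrial gene had its hMut hearts all above or all below the Ctrl hearts, beside 0.0617% of all tested genes that lay fully below. The 12 genes that rose are described by whether their enzyme belongs to the multi-synthetase complex, the assembly that holds a group of cytosolic synthetases together.

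Of the 8 members in the complex, 5 rose (*Eprs*, *Mars1*, *Iars*, *Lars* and *Rars*) and 3 did not pass the test (*Dars*, *Kars* and *Qars*). *Eprs*, which encodes the fused glutamyl- and prolyl-tRNA synthetase, had a lowest, median and highest level of 94.8, 101 and 109 CPM in Ctrl and of 121, 166 and 192 CPM in hMut. Its log2 fold change was 0.65 ± 0.09 (SE, adjusted p = 0.000233). *Mars1*, the methionyl-tRNA synthetase that also charges the initiator tRNA, ran from 38.3 through 45.4 to 48.7 CPM in Ctrl and from 51.5 through 64.1 to 70.7 CPM in hMut. The groups did not overlap for either gene, and *Mars1* had the smallest adjusted p of all members (log2 fold change 0.46 ± 0.06, adjusted p = 0.000188). The end of *Mars1* shares 68 bases with *Ddit3* on the other strand, an ATF4 target with 48.1% of the *Mars1* counts on average and a log2 fold change of 1.23 ± 0.28 (adjusted p = 0.0181). Whether strand was used in counting was not given in the sources used here, and the part of *Ddit3* reads in the *Mars1* values was not tested.

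*Iars* (isoleucine) had 57.0, 61.0 and 67.0 CPM in Ctrl and 71.5, 86.5 and 106 CPM in hMut as its lowest, median and highest values, a log2 fold change of 0.52 ± 0.08 (adjusted p = 0.000717). *Lars* (leucine), whose enzyme also senses leucine for mTORC1, had 57.4, 61.0 and 62.7 CPM in Ctrl and 63.4, 81.2 and 92.2 CPM in hMut, with a log2 fold change of 0.41 ± 0.07 (adjusted p = 0.00132). For both genes the lowest hMut heart stood above the highest Ctrl heart, by less than 1 CPM for *Lars*. *Rars* (arginine) was the weakest of the calls. It had 32.1, 37.2 and 41.0 CPM in Ctrl and 36.8, 44.9 and 49.6 CPM in hMut, so that the groups overlapped, and its log2 fold change was 0.24 ± 0.06 (adjusted p = 0.0422). The *Rars* call was lost without hMut hearts 6 and 9 (0.20 ± 0.06, adjusted p = 0.106) and, of the 17 fits that left out 1 heart, in 12. It stayed only where the heart left out was Ctrl 4, Ctrl 7, hMut 1, hMut 2 or hMut 8.

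Outside the complex, 7 of 13 cytosolic genes rose, among them the 3 largest changes of the family. *Gars*, whose gene gives both the cytosolic and the mitochondrial glycyl-tRNA synthetase, had 56.2, 60.6 and 64.0 CPM as its lowest, median and highest Ctrl values and 67.3, 116 and 151 CPM in hMut. Its log2 fold change of 0.87 ± 0.12 was the largest of the 38 (adjusted p = 0.000483). *Sars* (serine) went from 63.0, 65.7 and 68.3 CPM in Ctrl to 74.1, 122 and 162 CPM in hMut, a log2 fold change of 0.85 ± 0.12 (adjusted p = 0.000479). Both genes were narrow in Ctrl and wide in hMut, and neither overlapped between the groups. *Nars* (asparagine) had 93.3, 99.5 and 107 CPM in Ctrl and 111, 167 and 202 CPM in hMut, with a log2 fold change of 0.67 ± 0.10 (adjusted p = 0.000883).

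The other 4 changed by smaller steps. *Yars* (tyrosine) had 31.1, 34.1 and 38.1 CPM in Ctrl and 39.3, 56.4 and 67.9 CPM in hMut, with a log2 fold change of 0.62 ± 0.09 (adjusted p = 0.000994). *Aars* (alanine) had 64.8, 69.7 and 76.3 CPM in Ctrl and 82.8, 108 and 136 CPM in hMut, with a log2 fold change of 0.58 ± 0.09 (adjusted p = 0.000693). In both, the groups were apart. *Cars* (cysteine) had 16.8, 17.97 and 20.9 CPM in Ctrl and 20.4, 28.6 and 35.1 CPM in hMut, a log2 fold change of 0.58 ± 0.09 (adjusted p = 0.00136), and 8 of 9 hMut hearts exceeded every Ctrl heart. *Tars* (threonine) had 29.2, 31.1 and 33.4 CPM in Ctrl and 33.8, 40.6 and 48.2 CPM in hMut, a log2 fold change of 0.39 ± 0.06 (adjusted p = 0.00186) with no overlap of the groups. *Tarsl2*, the paralog of *Tars*, was at 51.2 to 61.4 CPM in Ctrl and 31.7 to 59.0 CPM in hMut and did not pass (log2 fold change -0.19 ± 0.10, adjusted p = 0.211). Its lowest hearts were hMut 6 and 9 (36.0 and 31.7 CPM), and without them its log2 fold change was -0.08 ± 0.05.

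**Figure D2:**
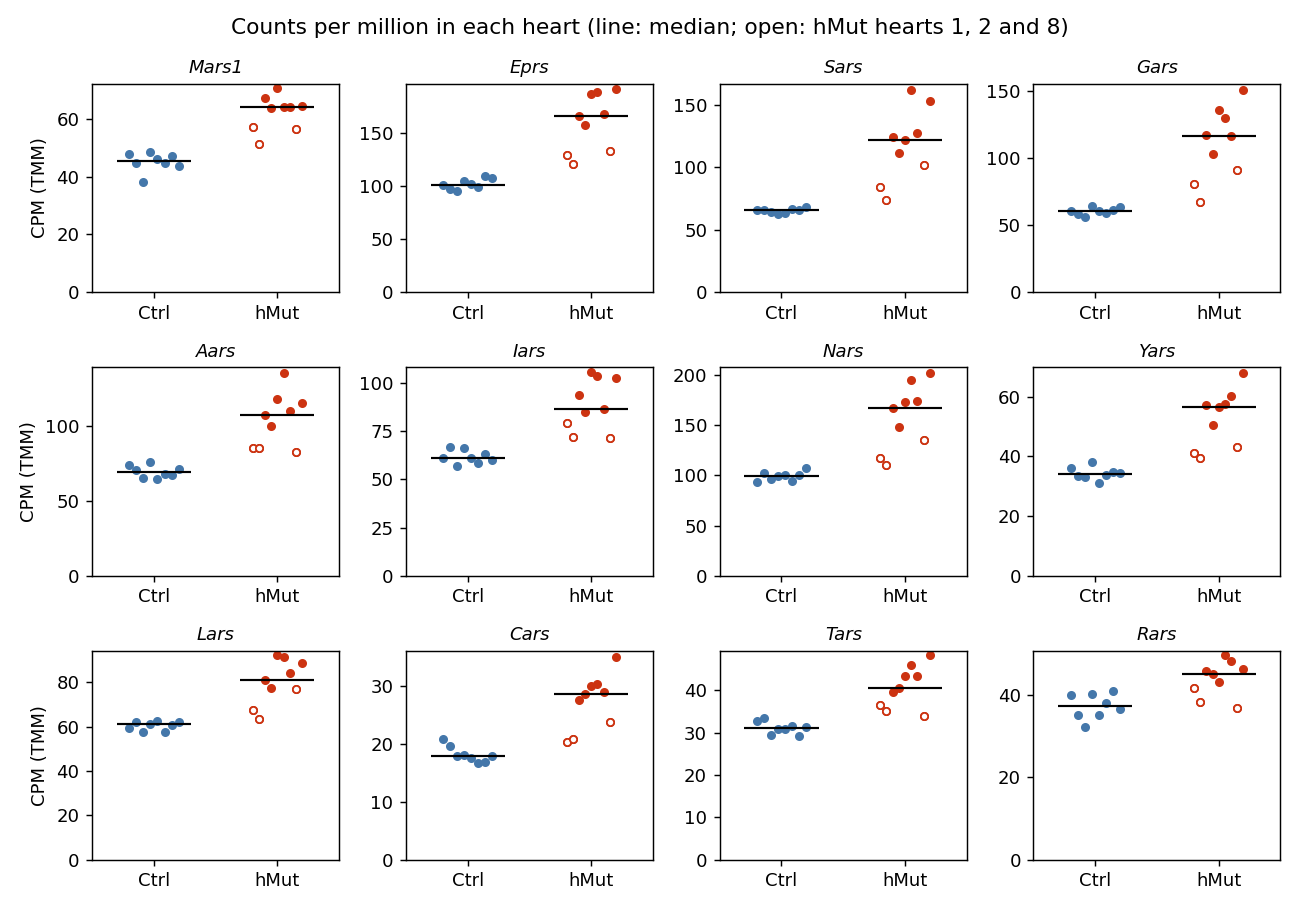
TMM-scaled CPM of the 12 cytosolic synthetase genes called higher in hMut, 1 point per heart with the group median as a line (8 Ctrl and 9 hMut hearts). Open points are hMut hearts 1, 2 and 8, the 3 lowest hMut hearts in every panel.

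The remaining cytosolic genes did not pass. *Wars* (tryptophan), whose transcription interferon is known to induce, had 47.4 to 54.7 CPM in Ctrl and 51.2 to 71.3 CPM in 8 hMut hearts, with 103 CPM in hMut 6. Its log2 fold change was 0.31 ± 0.11 (adjusted p = 0.0991) and was 0.15 ± 0.05 (adjusted p = 0.117) without hMut 6 and 9, the 2 hearts with the highest interferon-stimulated counts. The part of the interferon-stimulated response in the *Wars* value was not tested. The span of *Wars* shares 544 bases with that of *Wdr25* on the other strand, whose mean count was 8.64% of that of *Wars*. *Vars* (valine, 0.22 ± 0.08, adjusted p = 0.0885), *Farsb* (0.11 ± 0.03, adjusted p = 0.0708) and *Hars* (0.13 ± 0.05, adjusted p = 0.134) lay above 0, and *Farsa* was at 0.06 ± 0.05 (adjusted p = 0.453). *Vars* and *Farsb* passed where hMut 2 was left out (adjusted p = 0.0240 and 0.0297) and with limma-voom (0.0281 and 0.0293). *Farsb* also passed with DESeq2 (adjusted p = 0.0351), and *Wars* with limma-voom (adjusted p = 0.0405). *Farsa* and *Farsb* encode the 2 subunits of the cytosolic phenylalanyl-tRNA synthetase. *Dars* (aspartate, 0.00 ± 0.04, adjusted p = 0.983) and *Qars* (glutamine, -0.08 ± 0.04, adjusted p = 0.223) completed the set.

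The 2 genes that serve both compartments took different values. *Kars* (lysine) had 98.9, 104 and 111 CPM in Ctrl and 94.7, 101 and 109 CPM in hMut. The groups overlapped, with 3 of 9 hMut hearts below every Ctrl heart. Its log2 fold change was -0.03 ± 0.04 (adjusted p = 0.566) with a 95% interval from -0.11 to 0.04, while the interval of *Gars* ran from 0.60 to 1.13. With cardiomyocyte scaling *Kars* was called higher by 0.17, beside the median of 0.20 over all genes in that scaling.

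Splitting the cytosolic genes by other properties gave unequal counts. A list of 13 cytosolic synthetase genes known as ATF4 targets was written from general knowledge with earlier results of these data known. Of these 13, 11 rose (all of those above except *Rars*) and *Vars* and *Wars* did not, with a median log2 fold change of 0.58. Of the other 8 cytosolic genes only *Rars* rose, and their median was 0.03. By catalytic fold, 6 of 9 class I and 5 of 11 class II cytosolic genes rose, leaving out *Eprs*, which has both folds and rose. All 5 promoters with the TGATGNAA letters belonged to the 12 genes that rose and 0 to the 26 members that were not called. The other 7, such as *Sars* and *Eprs*, showed no match in the window searched.

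The mitochondrial genes had log2 fold changes between -0.23 and 0.09, with 15 of 17 below 0 and none past the threshold. *Hars2* (histidine) came nearest, with 29.1, 30.8 and 32.8 CPM in Ctrl and 21.4, 26.2 and 32.2 CPM in hMut, and 7 of 9 hMut hearts were below every Ctrl heart. Its log2 fold change was -0.21 ± 0.07 (adjusted p = 0.0807), and -0.14 ± 0.05 (adjusted p = 0.164) without hMut 6 and 9. It passed with DESeq2 (adjusted p = 0.0499), with limma-voom (adjusted p = 0.0145) and where hMut 1 or hMut 2 was left out (lowest adjusted p = 0.0233). *Hars2* and *Hars* lie head to head on opposite strands and their spans share 198 bases, so reads in that stretch are uncertain between them without strand. *Cars2* (-0.23 ± 0.10, adjusted p = 0.149), *Fars2* (-0.19 ± 0.08, adjusted p = 0.135), *Nars2* (-0.18 ± 0.07, adjusted p = 0.126), *Vars2* (-0.16 ± 0.07, adjusted p = 0.151) and *Iars2* (-0.15 ± 0.07, adjusted p = 0.186) were the others with an unadjusted p under 0.05. Like *Hars2*, *Nars2* had 7 of 9 hMut hearts below every Ctrl heart, and it had 1 above. Without hMut 6 and 9 these 5 were at -0.12, -0.11, -0.11, -0.10 and -0.07 in the same order, each smaller by over 1.5 times, with adjusted p between 0.256 and 0.454. The spans of *Cars2*, *Fars2* and *Iars2* also overlap genes on the other strand (*Naxd*, *Lyrm4* and *Nrn1*, and *Rab3gap2*), whose mean counts were 107%, 22.1% and 19.2%, and 25.4% of theirs.

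*Lars2* and *Rars2* were the 2 mitochondrial members above 0. *Lars2* (leucine) had 326, 362 and 427 CPM in Ctrl and 302, 393 and 486 CPM in hMut, with 3 hMut hearts above and 3 below every Ctrl heart and a log2 fold change of 0.09 ± 0.09 (adjusted p = 0.574). *Rars2* (arginine) was at 0.05 ± 0.05 (adjusted p = 0.577). The members not yet given, such as *Aars2*, *Ears2*, *Mars2*, *Pars2* and *Sars2*, lay between -0.12 and -0.02, and the smallest adjusted p among them was 0.208 (*Ears2*). Across the 17 genes the lower 95% bound was at or above -0.43 and the upper at or below 0.29. With cardiomyocyte scaling, 13 of the 15 mitochondrial genes below 0 turned positive, 15 of the 17 lay below the median of all genes in that scaling, and 3 were called higher (*Lars2* 0.28, *Rars2* 0.25 and *Tars2* 0.16).

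Setting the genes for 1 amino acid side by side gave 18 pairs, with *Eprs* paired to both *Ears2* and *Pars2* and *Farsa* and *Farsb* each paired to *Fars2*. The log2 ratio of the cytosolic to the mitochondrial gene within a heart does not depend on how libraries are scaled, apart from a small prior count. Its mean was higher in hMut for 18 of 18 pairs, with a median difference of 0.50. Because most cytosolic members were higher and most mitochondrial ones lower, this count repeats the 2 medians and is no separate result. The hMut and Ctrl ranges were apart for 5 pairs (*Nars* over *Nars2*, *Eprs* over *Ears2*, *Eprs* over *Pars2*, *Yars* over *Yars2* and *Iars* over *Iars2*). The cytosolic gene of each of these pairs was also apart on its own, and *Eprs* enters 2 of them. No share over pairs of other genes is given here.

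For asparagine, *Nars2* had 15.7, 16.3 and 17.1 CPM in Ctrl and 10.6, 14.6 and 17.3 CPM in hMut. The log2 ratio of *Nars* to *Nars2* ran from 2.54 to 2.75 in Ctrl and from 2.76 to 4.19 in hMut, a difference of 0.84 between the means. The mRNA ratio of the 2 genes was thus above the Ctrl range in every hMut heart, barely so in the lowest. *Sars2* had 7.39, 9.45 and 10.6 CPM in Ctrl and 7.75, 9.23 and 10.4 CPM in hMut, and the *Sars* over *Sars2* ratio differed most of all, by 0.86, with 8 of 9 hMut hearts above the Ctrl range. *Iars2*, the second most abundant mitochondrial member, had 106, 127.9 and 136 CPM in Ctrl and 89.0, 120 and 131 CPM in hMut. The *Iars* over *Iars2* ratio moved from between -1.18 and -0.89 to between -0.86 and 0.21. Towards the other end, *Rars* over *Rars2* differed by 0.19, with overlapping ranges.

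The other 3 separated pairs were those of *Ears2*, *Pars2* and *Yars2*. *Ears2* had 10.9, 11.4 and 13.6 CPM in Ctrl and 9.71, 11.1 and 11.9 CPM in hMut, and *Pars2*, the least abundant member by CPM, had 4.85, 5.36 and 6.43 CPM in Ctrl and 4.52, 5.01 and 5.58 CPM in hMut. *Eprs* over them differed by 0.75 and 0.73. *Yars2* had 20.9, 23.1 and 25.1 CPM in Ctrl and 16.2, 21.4 and 24.6 CPM in hMut, and the *Yars* ratio differed by 0.72. The span of *Ears2* shares 89 bases with that of *Ubfd1* on the other strand.

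**Figure D3:**
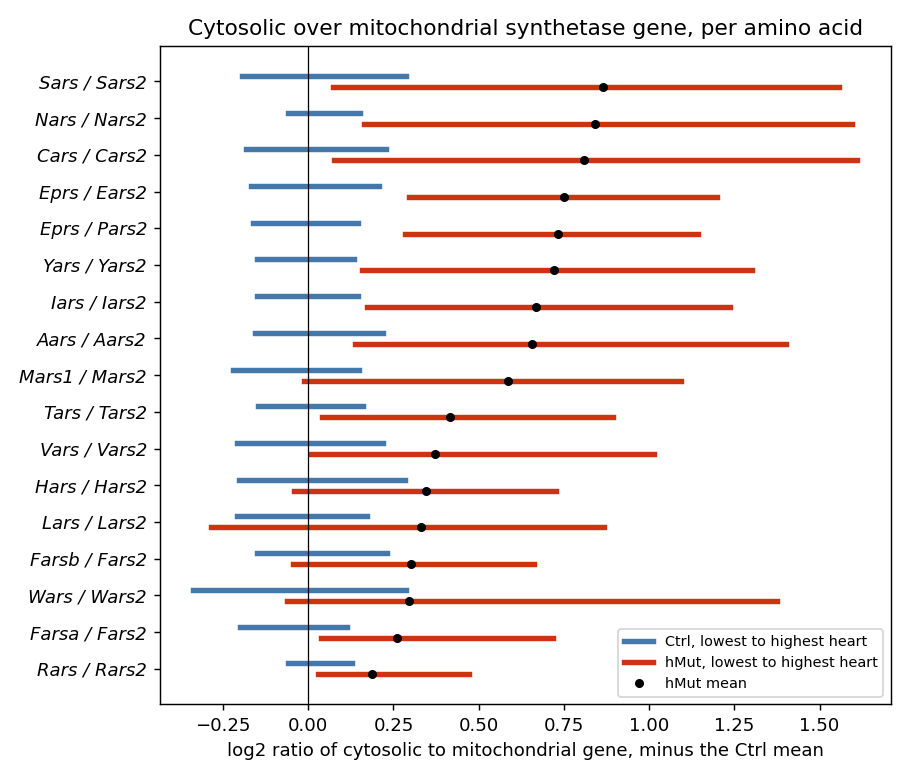
Log2 ratio of the cytosolic to the mitochondrial synthetase gene for 17 of the 18 pairs, relative to the mean of the Ctrl hearts. Bars run from the lowest to the highest heart of each group and black points are hMut means, which lie to the right of 0 for all pairs drawn.

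Among the cytosolic genes that rose, the same hMut hearts were lowest, although their order varied by gene. Hearts hMut 1, 2 and 8 were the 3 lowest hMut hearts for 12 of these 12 genes. The 3 highest came from hMut 5, 6, 7 and 9 for 11 of 12, and hMut 9 was among them for all 12. The values of one heart share its library and scaling factor, so the genes are not separate observations of this pattern. As a median over the 21 cytosolic genes of log2 CPM minus the Ctrl mean, hMut 8, 2 and 1 stood at 0.12, 0.16 and 0.16, and hMut 6 and 9 at 0.60 and 0.52. Ctrl hearts lay between -0.07 and 0.04.

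The spread between hearts also differed. The SD of log2 CPM in hMut over that in Ctrl had a median of 3.03 over the 12 genes that rose, 1.63 over the other cytosolic genes, 1.496 over the mitochondrial genes and 1.24 over all tested genes. For *Sars* the ratio was 9.56 (SD 0.04 in Ctrl and 0.37 in hMut), and for *Gars* 6.21. *Rars* (1.202) and *Mars1* (1.32) lay near the median of all genes. Among the genes not called, *Nars2* (4.11), *Wars* (4.05), *Tarsl2* (3.22), *Hars2* (3.08) and *Vars* (2.73) were also wider in hMut.

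In the mitochondrial genes it was hMut 6 and 9 that stood lowest. Heart hMut 6 was among the 2 lowest hMut hearts for 17 of 17 genes and hMut 9 for 12 of 17. Heart hMut 6 had 15 of the 17 below every Ctrl heart, and hMut 9 had 14, while the other 7 hMut hearts had 0 to 5. The share of all tested genes below every Ctrl heart in each of these hearts is not given here, so these counts have no background beside them. The mitochondrial median stood at -0.40 in hMut 6, -0.32 in hMut 9 and -0.12 to 0.05 in the other hMut hearts, with -0.13 to 0.08 in Ctrl. The cardiomyocyte markers had medians of -0.60 and -0.61 in these 2 hearts on the same scale, and the summed myeloid markers reached 1122 and 569 CPM against 207 to 351 CPM in all other hearts. The part of the cell makeup in the mitochondrial values was not tested. The median of the cytosolic genes was highest in the same 2 hearts, although hMut 5 was the highest heart for *Iars*, *Lars* and *Mars1*. With hMut 6 and 9 left out, 11 of the 12 cytosolic genes that rose were still called. *Gars* was then at 0.75 ± 0.11 (adjusted p = 0.000684), *Sars* at 0.70 ± 0.09 (adjusted p = 0.000255) and *Eprs* at 0.57 ± 0.08 (adjusted p = 0.000323).

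**Figure D4:**
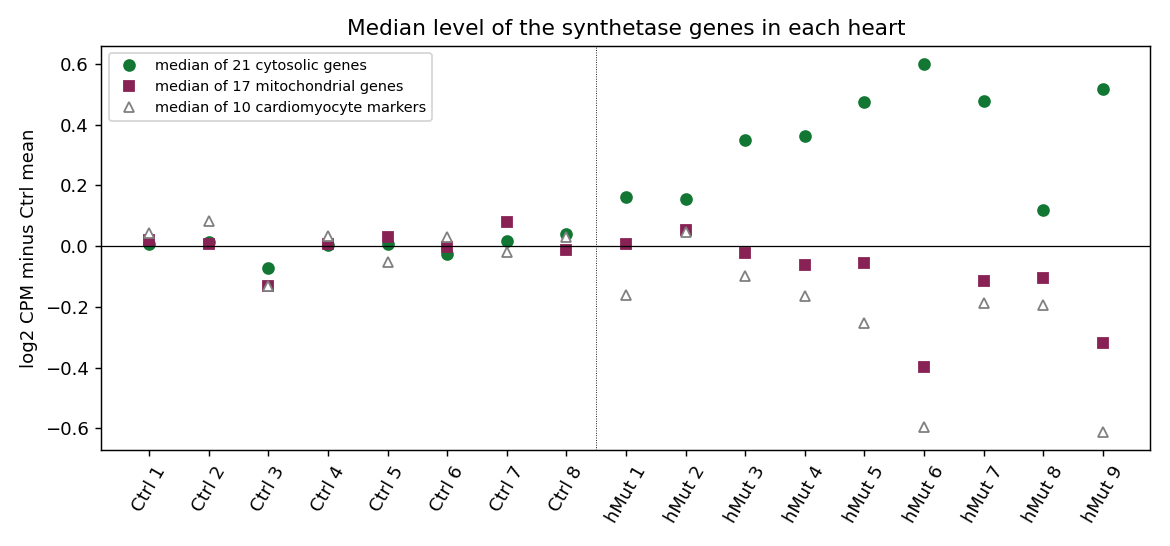
Median over the 21 cytosolic (circles) and 17 mitochondrial (squares) synthetase genes of log2 CPM minus the Ctrl mean in each of the 17 hearts, with 10 cardiomyocyte markers (triangles). All 9 hMut hearts have a cytosolic median over the highest Ctrl value, and the mitochondrial median is lowest in hMut 6 and 9.

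Per kilobase of gene length, mRNA levels within Ctrl hearts placed the gene of 1 mitochondrial enzyme first. *Lars2* had 33.0 ± 2.96 RPKM (CPM divided by the length in kilobases, SD, n = 8), followed by *Kars* at 23.3 ± 0.77 and *Nars* at 22.7 ± 1.02, which did not differ beyond their SDs, then *Gars* at 19.3 ± 0.81 and *Dars* at 18.2 ± 0.81. In hMut hearts *Nars* (36.3 ± 7.40, SD, n = 9), *Gars* (35.3 ± 8.70) and *Lars2* (35.0 ± 6.09) lay within their SDs of one another, with *Sars* at 22.9 ± 5.64 and *Kars* at 22.8 ± 1.22 next. *Sars* stood at 12.7 ± 0.34 RPKM in Ctrl, below *Iars2*, the second mitochondrial gene by this measure, at 14.3 ± 1.04. In hMut *Iars2* was at 12.8 ± 1.58. The lengths are those of the deposited table and count every annotated exon, which lowers the level of genes with many isoforms.

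Genes that work beside the synthetases were taken from 3 lists. Of the 3 scaffold proteins of the multi-synthetase complex, *Eef1e1* rose (0.38 ± 0.06, adjusted p = 0.00167), and *Aimp1* (0.02 ± 0.03, adjusted p = 0.689) and *Aimp2* (-0.02 ± 0.08, adjusted p = 0.915) did not pass. Of 12 tested genes for tRNA editing, maturation and export, *Xpot*, the tRNA export receptor, rose by 0.62 ± 0.07 (adjusted p = 1.64e-05) and 0 fell. *Elac2* (0.13 ± 0.05, adjusted p = 0.108) and *Prorsd1* (-0.15 ± 0.07, adjusted p = 0.176) had the next smallest values. The 4 mitochondrial partners, the amidotransferase subunits *Qrsl1*, *Gatb* and *Gatc* and the methionyl-tRNA formyltransferase *Mtfmt*, had 0 calls, with *Gatb* at -0.16 ± 0.07 (adjusted p = 0.184), *Qrsl1* at -0.11 ± 0.09 (adjusted p = 0.410) and *Gatc* at -0.02 ± 0.05 (adjusted p = 0.808).

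By median log2 fold change, the synthetase changes were smaller than those of other ATF4 targets, although the ranges overlapped. Of 25 such genes outside the family, 20 rose and 0 fell, beside 3.48% of all tested genes that rose and 1.14% that fell. The median log2 fold change was 1.46 over the 25, against 0.58 for the 13 listed synthetase genes. Both lists were chosen with earlier results of these data known, so these counts and medians describe the lists and test nothing. The part of ATF4 in these changes was not tested. The fold changes ran from -0.18 to 4.58 over the 25 genes and from 0.22 to 0.87 over the 13. *Mthfd2*, an enzyme of mitochondrial folate metabolism, rose by 4.07 ± 0.30 (adjusted p = 3.82e-07), *Asns*, which makes asparagine, by 3.56 ± 0.32 and *Psat1*, an enzyme of serine synthesis, by 2.74 ± 0.25 (adjusted p = 4.56e-06 for both). Their per-heart median was lowest in hMut 2 (0.32) and hMut 1 (0.53), followed by hMut 4 (0.95) and hMut 8 (1.05), and highest in hMut 6 (1.94) and hMut 9 (2.04). By these medians hMut 6 and 9 were the 2 highest for this list and for the cytosolic synthetase genes. Heart hMut 8, lowest by the cytosolic median, was not among the 3 lowest by the median of this list. The order depended on the summary. By summed CPM of this list, hMut 2 (926), hMut 1 (961) and hMut 8 (1058) were lowest, and hMut 9 (1503), hMut 5 (1331) and hMut 6 (1327) highest. Without hMut 6 and 9, 19 of the 25 rose, with a median of 1.18.

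The cell type lists moved less evenly. Of the 10 cardiomyocyte markers 0 were called, with a median of -0.24 and the smallest adjusted p for *Myh6* (-0.34 ± 0.10, 0.0601), *Tnni3* (-0.43 ± 0.13, 0.0629) and *Pln* (-0.35 ± 0.11, 0.0689). Of the 5 endothelial markers *Kdr* rose (0.39 ± 0.10, adjusted p = 0.0407), and *Pecam1* (0.14 ± 0.05, adjusted p = 0.105) and *Cdh5* (0.15 ± 0.07, adjusted p = 0.166) did not pass. The 6 fibroblast markers (*Col3a1* 0.54, *Pdgfra* 0.12 and *Col1a1* 0.51 first), 8 myeloid markers (*Cd14* 0.56, *C1qa* 0.70 and *Csf1r* 0.42), 8 lymphoid markers (*Cd3e* 2.08, *Cd8a* 2.59 and *Cd3g* 1.64), 4 smooth muscle and pericyte markers (*Tagln* 0.62, *Acta2* 0.49 and *Rgs5* 0.09) and 13 interferon-stimulated genes (*Irf7* 1.72, *Oas3* 1.82 and *Cxcl10* 2.03) had 0 calls in either direction by edgeR. Without hMut 6 and 9, the median log2 fold change was -0.02 over the interferon-stimulated genes (1.001 with them), 0.08 over the myeloid markers (0.59 with them), 0.10 over the fibroblast markers (0.31 with them) and -0.16 over the cardiomyocyte markers. The *Kdr* call was lost, and 0 genes of these lists were called. With all hearts, at an unadjusted p under 0.05, 5 fibroblast, 5 myeloid, 3 lymphoid, 2 smooth muscle and 9 interferon-stimulated genes were higher and 7 cardiomyocyte markers lower. Of all 16195 tested genes, 2347 were higher and 1831 lower at that threshold. The share of counts on genes encoded by mitochondrial DNA was 23.5% to 30.9% in Ctrl and 15.9% to 23.0% in hMut, and the part of this shift or of the cell makeup in the synthetase results was not tested.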

How the data were processed

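RNA was measured in 17 mouse hearts, 9 hMut and 8 Ctrl, grouped by the depositors' labels. Per the labels and methods, the authors selected polyadenylated RNA, trimmed the reads with fastp, mapped them with HISAT2 2.2.1 (GRCm39) and summed them over genes with featureCounts 2.0.6. What they deposited is a table of gene-level read counts without normalization. Whether separate cages or litters were used, and the strand setting of the counting, were not given in the sources used here, and p-values measure the spread between these hearts.

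Counts were tested with edgeR 4.0.16 (R 4.3.3; quasi-likelihood, TMM, filterByExpr, condition as the only term), with Benjamini-Hochberg adjustment over 16195 genes and a threshold of 0.05. The SE is the size of the log2 fold change over the square root of F, and 95% intervals use 15 residual degrees of freedom. Per-heart log2 CPM used a prior count of 2. The lowest count of a member in any heart was 165. The test was tested on simulated counts. Promoters came from the GRCm39 genome and GENCODE M39 (pysam 0.24.0). The highest Spearman correlation between libraries over 136 pairs was 0.926 across genes, so none was deposited in duplicate. Alternatives used DESeq2 1.42.0 and limma 3.58.1.

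All members enter the counts and medians, and the values of 1 member and 1 promoter match are not reported here. Values per heart and full statistics are given for members past the threshold, *Gars*, *Kars* and both members of a described pair, the others by range or fold change. *Polg* is given once, and each other list by counts and its 3 smallest adjusted p. The members and lists were chosen with earlier results of these data known.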

Additional observations from a re-analysis of the deposited data

Results flagged for a closer look

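Each member's CPM and the 2 compartment medians were examined within each group for a heart far from the others (Dixon's 95% critical value), in 80 tests, of which 4 passed. Chance alone passes about 5% of such tests. *Wars* in hMut 6, at 103 CPM with the next heart at 71.3 CPM, was the 1 flag in an hMut heart, and that heart also had the highest summed interferon-stimulated counts. *Iars2* in Ctrl 3 was at 106 CPM, with the next Ctrl heart at 124 CPM. The median over the mitochondrial synthetase genes in Ctrl 3 was -0.13 on the log2 scale against -0.01 in the next heart, and that heart had the largest share of counts on genes encoded by mitochondrial DNA (30.9%). *Pars2* in Ctrl 8 was at 6.43 CPM, with the next heart at 5.55 CPM.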

How the results depend on the processing

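Under 10 settings with all hearts, under the removal of hMut 6 and 9 together and under the removal of each heart in turn, 11 of the 12 cytosolic calls were kept with their direction. *Rars* was the exception, and was lost with upper-quartile normalization, without a filter on low counts, with sex as a covariate (adjusted p = 0.0550), with the replicate block and without hMut 6 and 9. Scaling on cardiomyocyte markers, which shifts all genes up by 0.20, called 19 cytosolic and 3 mitochondrial genes higher, moved the medians to 0.60 and 0.077, turned 13 of the 15 negative mitochondrial and 3 of the 4 negative cytosolic fold changes positive, of which *Kars* (0.17), *Dars* (0.19) and *Tars2* (0.16) were called, and called 5952 of all genes. Without hMut 6 and 9 the cytosolic median was 0.32, the mitochondrial one -0.043, and 431 genes were called in all. DESeq2 and limma-voom with quality weights each called 1 mitochondrial gene lower (*Hars2*) and 13 and 15 cytosolic genes higher, with 1524 and 2081 calls in all, and no filter on low counts gave 463. Leaving out 1 heart gave 11 to 14 cytosolic genes higher, 0 to 1 mitochondrial genes lower (*Hars2*, without hMut 1 or hMut 2), medians of 0.35 to 0.42 and -0.13 to -0.08, and 395 calls over all genes (without hMut 5) to 1792 (without hMut 2). Replicate numbers name different mice. Same-numbered hearts had correlations of deviations between -0.31 and 0.45, and 0 of 8 hMut hearts correlated best with the Ctrl heart of their number. With the replicate block the cytosolic median was 0.35, and 195 genes were called in all. The causes of these shifts were not tested. With the 9-letter element, 3 of 21 cytosolic promoters kept a match.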
